A study of Homo sapiens with 4 samples.

Results

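Heat shock proteins are molecular chaperones, and the DNAJ proteins are the co-chaperones that deliver clients to the HSP70 proteins and stimulate their ATPase. They were described here in HaCaT, an immortalised line of human epidermal keratinocytes. A member was any gene annotated as protein-coding whose symbol begins with HSPA, HSPB, HSPD, HSPE, HSPH, HSP90 or DNAJ. HSPBP1, HSPBAP1 and symbols with a hyphen (DNAJC25-GNG10 and HSPE1-MOB4) were not taken. The rule found 73 members among 19233 protein-coding genes. RNA-seq was performed on total RNA of 4 biological repeats of HaCaT cultured at 37 °C in serum-supplemented medium with no treatment. All 4 libraries form 1 group with no genotype, agent or time to compare. Levels in untreated cells of a single line are therefore described, and no response to heat or to another stress was measured.

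HSP70 proteins bind and release unfolded stretches of protein in a cycle of ATP hydrolysis that a J-domain protein starts and a nucleotide exchange factor ends. HSP90 proteins act later and on folded or nearly folded clients such as kinases and steroid receptors, whereas the small heat shock proteins hold unfolding proteins without ATP and HSPD1 with HSPE1 forms the folding chamber of mitochondria. Several of these genes are induced by heat shock factor 1 in stressed cells, and HSPB1 is a well-known protein of differentiating epidermis.

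The total count was 73082279 in replicate 1 and 17056035 to 19745170 in replicates 2 to 4. Protein-coding genes took 76.1% of the counts in replicate 1 and 95.3% to 96.4% in the others. Across detected genes, Spearman's rho was 0.754 to 0.780 between replicate 1 and the others and 0.944 to 0.967 among replicates 2 to 4. Replicate 1 therefore stands apart, and values are given for each replicate. All 8 keratinocyte markers (KRT5, KRT14, TP63 and others) were detected, with a summed level of 11161 to 15227 TPM (the count per gene length, scaled to the same total in every library), while 2 of 7 fibroblast markers (5.20 to 9.70 TPM), 1 of 4 leukocyte markers (CD68, with a list sum of 8.42 to 43.9 TPM) and 1 of 4 melanocyte markers (1.36 to 3.52 TPM) were detected. Since the RNA came from whole cultures, fewer cells expressing a gene and less RNA per cell cannot be told apart. TYR had no count in any library and PTPRC had none outside replicate 1.

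Levels are given as TPM over protein-coding genes, which corrects for gene length, and a mean of 4 replicates is given with its SD (n = 4). A gene with a mean TPM above 1 was called detected. Of the 73 members, 59 (80.8%) were detected, while 63.3% of all protein-coding genes were. The median of the mean TPM was 44.1 over the 59 detected members and 24.5 over all 12165 detected genes. A single member, HSPA8, was among the 100 genes with the highest mean TPM, and 12 members were among the highest 1000.

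A total of 14 members were not detected. These were HSPA6 and HSPA12B of the HSP70 family, HSPB2, HSPB6 and HSPB7 of the small heat shock proteins, DNAJB5, DNAJB7, DNAJB8 and DNAJB13, and DNAJC5B, DNAJC5G, DNAJC12, DNAJC22 and DNAJC28. HSPB2 and HSPB7, which are known from heart and skeletal muscle, had 0 counts in all 4 libraries, and in replicate 2 a floor of 3 counts would be 0.54 TPM for HSPB2 and 0.16 TPM for HSPB7. HSPB2 lies wholly, over 1358 bases, within the readthrough gene HSPB2-C11orf52 of the same strand, which had 0, 61, 76 and 67 counts, and how reads shared by both were assigned is not given in the sources used here. HSPA6, an HSP70 gene that is nearly silent until cells are stressed, had 6, 12, 23 and 12 counts (0.10, 0.77, 1.09 and 0.68 TPM) in replicates 1 to 4. In all, 6 members had 3 or fewer counts in every library.

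Upstream sequences of the leading members are shown because the best known regulators of these genes read short motifs there. RefSeq promoters (GRCh38.p14) were matched by gene identifier for 65 of the 73 members, and the 250 bases before each start were searched. Heat shock factors bind repeats of GAA in alternating orientation, so a pair of inverted units was searched as GAANNTTC or TTCNNGAA, which read the same on both strands. Such a pair was found for 20 of 65 members (30.8%) and for 13.0% of 15843 protein-coding genes. A run of 3 units in a row was found for 6 members (9.23%), DNAJB6, HSP90AA1, HSP90AB1, HSPA6, HSPA8 and HSPD1, and for 0.499% of all genes. The runs are counted among the pairs. Capitals mark the paired units in the next sequences, each 5′ to 3′ and ending at the base before the start. The first is HSPA8 (chr11:123062137-123062386, minus strand), the second the inner of 2 listed HSP90AA1 starts (chr14:102087045-102087294, minus strand), the third the last of 3 listed HSP90AB1 starts (chr6:44247693-44247942, plus strand) and the last HSPA1A (chr6:31815293-31815542, plus strand).
HSPA8: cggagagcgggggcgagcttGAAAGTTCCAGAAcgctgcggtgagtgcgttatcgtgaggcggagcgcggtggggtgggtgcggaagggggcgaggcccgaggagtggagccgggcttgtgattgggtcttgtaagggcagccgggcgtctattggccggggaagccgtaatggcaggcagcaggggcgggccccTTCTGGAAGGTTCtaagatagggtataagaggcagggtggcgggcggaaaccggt
HSP90AA1: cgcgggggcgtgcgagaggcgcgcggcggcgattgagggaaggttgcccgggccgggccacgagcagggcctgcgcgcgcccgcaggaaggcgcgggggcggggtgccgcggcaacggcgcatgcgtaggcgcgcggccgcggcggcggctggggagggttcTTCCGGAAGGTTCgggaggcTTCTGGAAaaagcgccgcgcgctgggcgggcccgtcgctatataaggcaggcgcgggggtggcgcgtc
HSP90AB1: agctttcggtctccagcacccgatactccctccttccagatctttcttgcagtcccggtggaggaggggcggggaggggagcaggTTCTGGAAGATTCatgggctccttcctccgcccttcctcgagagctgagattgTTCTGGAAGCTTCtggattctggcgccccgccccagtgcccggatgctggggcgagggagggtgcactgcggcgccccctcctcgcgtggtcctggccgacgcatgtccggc
HSPA1A: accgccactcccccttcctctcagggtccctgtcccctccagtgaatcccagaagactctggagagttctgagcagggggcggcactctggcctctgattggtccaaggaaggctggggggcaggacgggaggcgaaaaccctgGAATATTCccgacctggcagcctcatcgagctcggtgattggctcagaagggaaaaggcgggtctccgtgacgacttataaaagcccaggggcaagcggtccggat

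HSPA8 held runs that begin 230 and 55 bases before the start, HSP90AA1 a run at 88 and a further pair at 68, and HSP90AB1 runs at 165 and 112. HSPA1A held a single pair at 106 bases. The other listed start of HSP90AA1 and the other listed starts of HSP90AB1 held no pair. A member or a gene was counted where any of its listed starts held the motif. A match is a description of letters and not a measured binding site. By family, pairs were found for 2 of 3 HSP90, 6 of 13 HSP70 and HSP110, 1 of 2 chaperonin, 4 of 7 small heat shock protein, 2 of 4 DNAJA, 4 of 12 DNAJB and 1 of 24 DNAJC members. The median of the mean TPM was 147 over the 17 detected members with a pair and 44.7 over the 38 detected members without one. These medians leave out members under the detection limit, and over all 20 and 45 matched members they were 54.3 and 37.3 TPM. CCAAT on either strand was found for 41.5% of members and 40.2% of genes, and TATAAA on the given strand for 13.8% and 8.29%.

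The element read by factors of the unfolded protein response, searched on both strands as CCAAT followed by 9 bases of any kind and CCACG, was found for HSPA5 and HSP90B1 (3.08% of 65 members) and for 0.133% of all genes. These encode the HSP70 and HSP90 of the endoplasmic reticulum. Capitals mark the element in the next sequences, HSPA5 (chr9:125241344-125241593, minus strand) and HSP90B1 (chr12:103930160-103930409, plus strand). HSPA5 held it at 66 bases before the start and HSP90B1 at 194 and, on the other strand, at 89.
HSPA5: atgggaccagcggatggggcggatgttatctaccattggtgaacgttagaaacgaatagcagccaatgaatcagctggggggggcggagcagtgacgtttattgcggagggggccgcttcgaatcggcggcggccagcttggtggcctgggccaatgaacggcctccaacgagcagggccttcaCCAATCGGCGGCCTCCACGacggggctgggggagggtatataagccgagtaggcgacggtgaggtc
HSP90B1: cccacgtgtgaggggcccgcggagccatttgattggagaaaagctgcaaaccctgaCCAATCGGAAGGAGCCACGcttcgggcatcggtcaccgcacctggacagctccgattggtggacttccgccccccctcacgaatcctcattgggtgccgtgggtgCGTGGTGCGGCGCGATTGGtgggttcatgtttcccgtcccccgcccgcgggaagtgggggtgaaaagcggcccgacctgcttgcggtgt

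All 3 HSP90 members were detected, in the order HSP90AB1, HSP90AA1 and HSP90B1, and each neighbour in this order kept its place in all 4 replicates. HSP90AB1, the constitutive cytosolic HSP90 (chromosome 6 from 44213903 to 44221625, plus strand, positions of genes as in the files), stood at 763, 1575, 1462 and 1635 TPM in replicates 1 to 4 (1358 ± 404). HSP90AA1, the inducible cytosolic HSP90 (chromosome 14 from 102547075 to 102606086, minus strand), stood at 432, 1125, 744 and 1245 TPM (887 ± 371). HSP90B1 of the endoplasmic reticulum stood at 392, 419, 200.1 and 578 TPM (397 ± 155). Replicate 1 was the lowest for both cytosolic genes and replicate 3 for HSP90B1. HSP90AB1 exceeded HSP90AA1 by 0.67 ± 0.27 on the log2(TPM + 1) scale, in 4 of 4 replicates. A two-sided exact sign-flip permutation test gave p = 0.125, which is the smallest p this test allows with 4 replicates, so by this test no difference between genes can pass 0.05.

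HSPA8, the constitutive cytosolic HSP70 (chromosome 11 from 122928200 to 122933043, minus strand), was the highest of all 73 members in every replicate, at 1302, 2636, 4119 and 2692 TPM (2687 ± 1151). Replicates 2 and 4 lay close together, replicate 1 was lowest and replicate 3 highest. It ranked 115, 37, 24 and 34 among protein-coding genes and took 54.8%, 59.7%, 71.7% and 56.2% of the summed TPM of the HSP70 and HSP110 members. HSPA5, the HSP70 of the endoplasmic reticulum also called BiP (chromosome 9 from 127997127 to 128003666, minus strand), stood at 117, 719, 519 and 714 TPM (517 ± 282). Replicate 1 lay far below the other 3, which did not overlap with it. HSPA9, the mitochondrial HSP70, stood at 264, 248, 249 and 224 TPM (246 ± 16.6), with the replicates close together.

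HSPA1A and HSPA1B are heat-inducible genes on chromosome 6 that encode nearly the same protein, so the split of reads between them is uncertain. HSPA1A stood at 170.3, 233, 298 and 364 TPM and HSPA1B at 186, 213, 277 and 320.4 TPM. HSPA1A took 46.9% (95% Wilson interval 46.2% to 47.6%), 51.4% (50.2% to 52.5%), 50.9% (50.02% to 51.8%) and 52.3% (51.4% to 53.2%) of the counts of the pair, where the intervals cover counting error only. The pair together stood at 356, 446, 575 and 685 TPM (515 ± 144), and HSPA8 stood 3.66, 5.91, 7.17 and 3.93 times as high. HSPA8 exceeded HSPA1A alone by 3.27 ± 0.44 on the log2(TPM + 1) scale and HSPA5 by 2.56 ± 0.79, each in 4 of 4 replicates (exact permutation p = 0.125 each). HSPA5 exceeded HSPA9 in 3 of 4 replicates, with a difference of 0.77 ± 1.32 (exact permutation p = 0.375). That difference was -1.16 in replicate 1 and 1.42 ± 0.32 in replicates 2 to 4 (n = 3), so the order of the reticular and the mitochondrial HSP70 turned in replicate 1.

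The HSP110 proteins, HSP70 relatives that act as nucleotide exchange factors, were HSPA4 at 149, 137, 121 and 166 TPM, HSPH1 at 47.8, 124, 76.1 and 179.9 TPM and HSPA4L at 4.14 to 9.91 TPM. HSPH1 is the heat-inducible one and differed more between replicates than HSPA4. HSPA1L, a relative known from testis that lies beside HSPA1A, stood at 2.04, 2.49, 1.01 and 4.18 TPM, on 23 to 126 counts. The other detected HSP70 genes, HSPA2, HSPA14, HSPA13 and HSPA12A, had mean TPM of 11.5 to 56.7. Of the 12 neighbours in the order of this family, 6 kept their order in all 4 replicates. HSPA5 with HSPA1A, HSPA1A with HSPA1B and HSPA1B with HSPA9 were among those that did not.

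HSPD1, the mitochondrial chaperonin, and HSPE1, its lid, are transcribed head to head from overlapping genes on opposite strands of chromosome 2, with 278 bases in common. HSPD1 stood at 322, 496, 405 and 499 TPM (431 ± 84.3) and HSPE1 at 87.7, 239.6, 280.0 and 214 TPM (205 ± 83.0). Both were lowest in replicate 1. HSPD1 exceeded HSPE1 by 1.17 ± 0.55 on the log2(TPM + 1) scale in 4 of 4 replicates (exact permutation p = 0.125), which is a ratio of 3.68, 2.07, 1.45 and 2.34. HSPE1 also overlaps the readthrough gene HSPE1-MOB4, which had 4, 928, 1329 and 766 counts beside 2030, 1518, 2398 and 1517 for HSPE1. How reads shared by both were assigned is not given in the sources used here.

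Among the small heat shock proteins HSPB1 was by far the highest (chromosome 7 from 75931875 to 75933614, plus strand), at 476, 1541, 849 and 1528 TPM (1098 ± 526). It took 82.9%, 96.9%, 93.5% and 97.0% of the summed TPM of the 8 HSPB members. Replicates 2 and 4 lay together, replicate 3 below them and replicate 1 lowest. HSPB11, which carries the name but is a subunit of the intraflagellar transport complex, stood at 77.5, 43.8, 53.8 and 42.2 TPM. HSPB8, the partner of BAG3 in selective autophagy, stood at 3.35, 1.58, 1.28 and 2.88 TPM, and HSPB9, a testis gene, at 0.47, 2.69, 2.89 and 0.65 TPM on 3 to 16 counts. HSPB3, a muscle gene, had 313 counts in replicate 1 and 3, 3 and 5 in the others, that is 16.4 against 0.58, 0.43 and 0.86 TPM, so it passed the detection limit through replicate 1 alone. The alpha-crystallins CRYAA and CRYAB, small heat shock proteins outside the symbol rule, were not detected.

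The 4 DNAJA members, which have the full domain layout of bacterial DnaJ, were all detected. DNAJA1 stood at 103, 153, 186 and 146 TPM (147 ± 34.3) and DNAJA2 at 134, 104, 117 and 90.2 TPM (111 ± 18.4), and these cytosolic neighbours changed order in replicate 1. DNAJA3 of mitochondria stood at 53.8, 97.4, 93.3 and 63.1 TPM, and DNAJA4 at 10.1, 26.2, 20.2 and 43.3 TPM. Among the DNAJB members, 9 of 13 were detected. DNAJB1, the heat-inducible cytosolic partner of HSP70, led at 119, 197, 264 and 206 TPM (197 ± 59.6), followed by DNAJB11 of the endoplasmic reticulum at 117, 164, 132 and 144 TPM (139.5 ± 20.04). DNAJA1 was lower than DNAJB1 in 4 of 4 replicates, by -0.39 ± 0.14 on the log2(TPM + 1) scale (exact permutation p = 0.125). DNAJB6, a suppressor of polyglutamine aggregation, had 55.3, 82.8, 84.0 and 78.2 TPM. DNAJB12, a membrane protein of the endoplasmic reticulum, had 55.2, 43.2, 41.8 and 42.2 TPM, and DNAJB2 had 54.9, 37.1, 30.8 and 53.4 TPM.

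The DNAJC members share the J domain and little else, and 23 of 28 were detected. The highest were DNAJC8, a spliceosome-associated protein, at 152, 106, 157 and 115 TPM (133 ± 26.0), DNAJC7, which also binds HSP90, at 129, 149, 131 and 121 TPM (132 ± 11.8), and DNAJC9, a histone co-chaperone, at 148, 105, 141 and 100.2 TPM (123 ± 24.3). DNAJC5, the palmitoylated cysteine string protein, stood at 87.6, 145, 115 and 115 TPM (115 ± 23.3) and DNAJC11 of the mitochondrial membranes at 36.9, 85.0, 74.5 and 62.8 TPM (64.8 ± 20.7). The first 4 could not be put in an order, since each neighbour among them led in 2 of 4 replicates. Over the whole family, 4 of 22 neighbours kept their order in all 4 replicates. The other 18 detected DNAJC members had mean TPM of 1.85 to 46.4. Genes that share sequence with a member bear on some of these values. DNAJC25 shares 23000 bases with the readthrough gene DNAJC25-GNG10, which had 0, 249, 501 and 402 counts beside 669, 221, 267 and 218 for DNAJC25. In all, 12 members overlapped another gene on the same strand and 27 on the opposite strand.

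**Figure D1:**
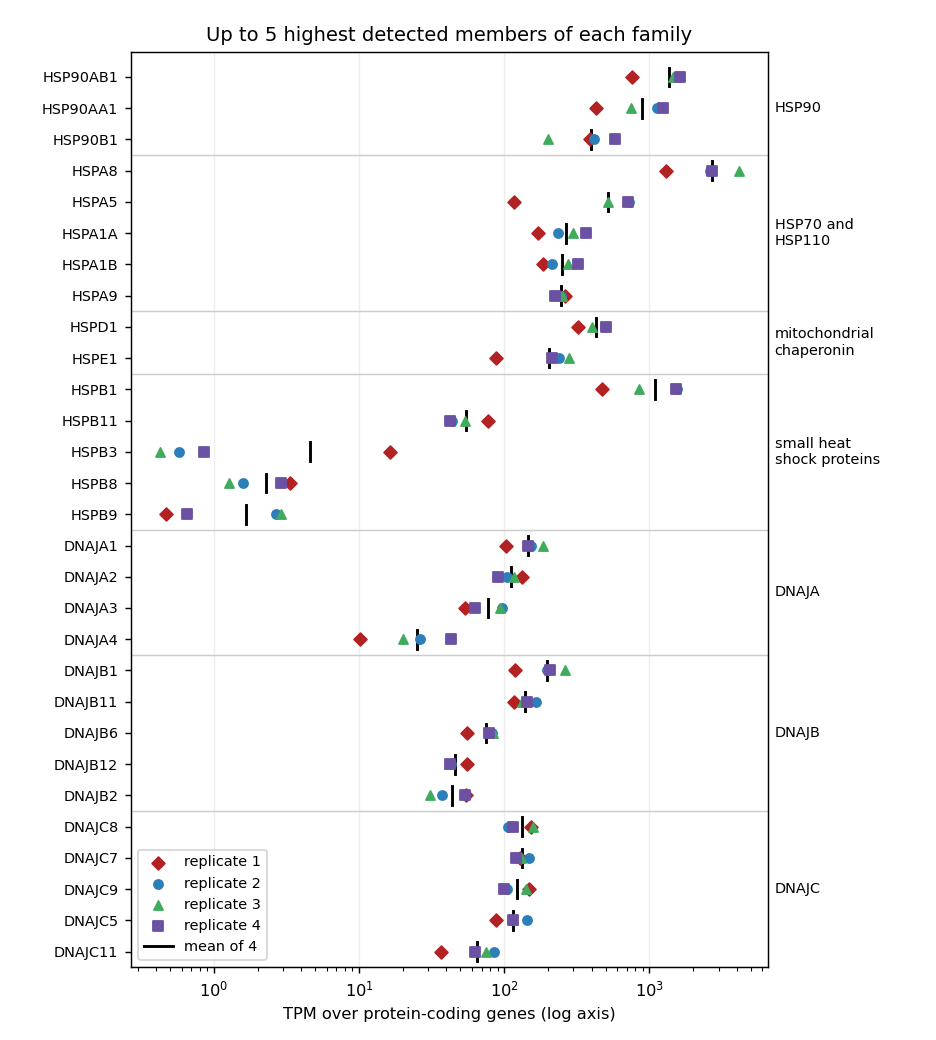
TPM over protein-coding genes on a log axis for up to 5 detected members of each family, 1 row per gene, with a marker for each of the 4 replicates and a black tick at their mean. HSPA8 lies farthest right (2687 TPM on average), replicate 1 is leftmost for HSPA5 (117 TPM) and HSPB1 (476 TPM), and HSPB3 has replicate 1 at 16.4 TPM with the others below 1.

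Summed over families, the HSP70 and HSP110 members stood at 2374, 4412, 5746 and 4792 TPM (4331 ± 1420), the HSP90 members at 1587, 3118, 2406 and 3458 TPM (2642 ± 829) and the small heat shock proteins at 573, 1589.9, 908 and 1575 TPM (1162 ± 505). The chaperonin genes stood at 410.0, 736, 685 and 713 TPM (636 ± 152). Each of these 4 sums was lowest in replicate 1 with TPM and under each of the 5 other scalings. DNAJA genes stood at 301, 380.3, 417 and 342 TPM (360 ± 49.9), DNAJB genes at 454, 553, 580.4 and 558 TPM (536 ± 56.4) and DNAJC genes at 1068, 990.4, 942 and 929 TPM (982 ± 62.7). The 28 HSP members together stood at 4944, 9856, 9745 and 10537 TPM (8771 ± 2575), whereas the 45 DNAJ members stood at 1822, 1923, 1939 and 1830.0 TPM (1878 ± 61.1). Replicate 1 was at 0.492 times the mean of the others for HSP and at 0.960 times for DNAJ. The near equality of the DNAJ sums depends on the scaling, since with TMM they were 1778, 1776, 2282 and 1689, and with TPM over all rows replicate 1 was at 0.332 times the others for DNAJ and 0.170 times for HSP. The ratio of HSP70 and HSP110 to DNAJ transcripts within a library, which no factor applied to a whole library changes, was 1.30 in replicate 1 and 2.29, 2.96 and 2.62 in replicates 2 to 4. All 73 members took 0.677%, 1.18%, 1.17% and 1.24% of protein-coding TPM (1.06% ± 0.261). The 5 highest members, HSPA8, HSP90AB1, HSPB1, HSP90AA1 and HSPA5, held 45.7%, 64.5%, 65.9% and 63.2% of that.

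**Figure D2:**
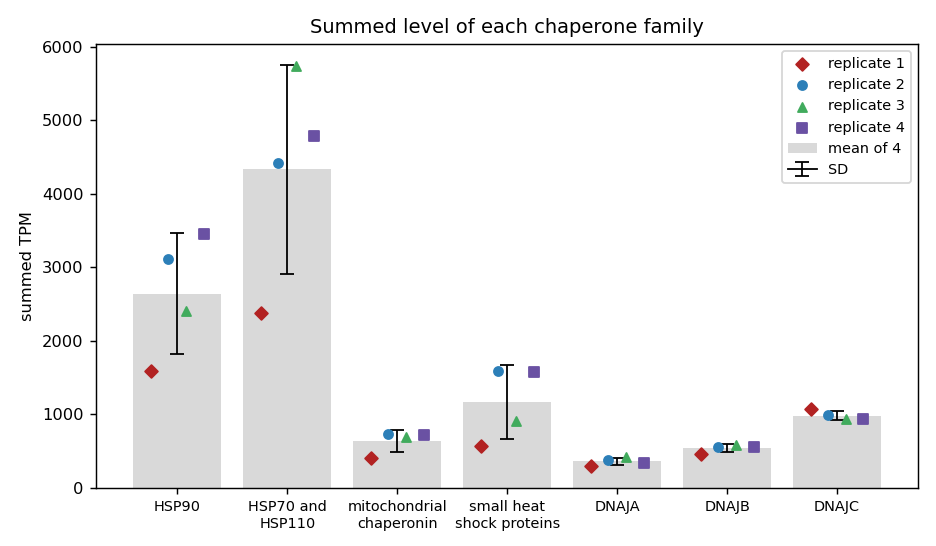
Summed TPM of the members of each family, with grey bars from 0 for the mean of 4 replicates, black lines for the SD and a marker for each replicate. Replicate 1 lies below the other replicates for HSP90, HSP70 and HSP110, the chaperonin and the small heat shock proteins (573 against 908 to 1589.9 TPM), while the DNAJC sums lie between 929 and 1068 TPM on this scale.

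Replicate 1 was then compared with the mean of replicates 2 to 4 on the log2(TPM + 1) scale, which understates the change of low genes. This is a difference between 1 library and 3 others of the same group, so it has no test. Of the 59 detected members, 10 were over 2-fold lower in replicate 1 (16.9%), against 20.1% of the 12165 detected genes. Over 2-fold higher were 4 members (6.78%), against 17.4% of the genes. HSPB3, 1 of these 4, was detected through replicate 1 alone and so had to be higher there. Without the genes detected in this way it was 3 of 58 members (5.17%) and 16.4% of 11970 genes. DNAJB3, 1 of the 10 lower members, had 0 counts in replicate 1, so once detected it had to be lower there. Genes of that kind were not taken out of the lower counts, for members or for all genes. Members were past these folds no more often than genes at large, and the median difference was 0.09 over the members and 0.03 over all genes.

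Over 2-fold lower were 20.1% of all detected genes, and over 2-fold higher were 17.4%. Among 23 detected HSP members 7 were lower and 1 higher, namely HSPB3, which was detected through replicate 1 alone. Among 36 DNAJ members 3 were lower and 3 higher. The lower members were HSPA5 (-2.44), HSPE1 (-1.46), HSPB1 (-1.40), HSPH1 (-1.30), HSPA8 (-1.24), HSP90AA1 (-1.23), HSP90AB1 (-1.03), DNAJB3 (-1.49), DNAJA4 (-1.40) and DNAJC30 (-1.02), all log2 differences. HSPA5 was the farthest of them, and 4.27% of detected genes lay farther down. The higher ones were HSPB3 (3.44), DNAJB14 (1.86), DNAJC13 (1.64) and DNAJC27 (1.14), and 1.00% of detected genes lay farther up than HSPB3. HSPH1, HSPA8, HSP90AA1, HSP90AB1, HSPE1, HSPB1, DNAJA4, DNAJC30 and DNAJC27 are given here to complete the counts and were chosen for this after their values were seen. Among the 12 members in the highest 1000 genes, 10 lay lower in replicate 1 by any amount, all but HSP90B1 and HSPA9, against 55.2% of those 1000 genes.

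Base composition moved with the differences. Across genes, which are not independent replicates, Spearman's rho between GC content and the difference in replicate 1 was -0.49 over 58 members and -0.51 over 11889 detected genes. With the differences centred within 20 bins of GC content, 9 members lay over 2-fold lower and 4 higher. These 13 of 58 members stood beside 3266 of 11889 genes (27.5%) past the fold either way, so members were past it no more often than genes at large. HSPA5 then stood at -2.67, HSPH1 at -2.09, HSP90AA1 at -1.46 and HSPA8 at -1.34, while HSPB1 came to -0.67, DNAJC30 to -0.59, DNAJB14 to 0.92 and DNAJC27 to 0.53, short of a fold of 2. HSPB3 stayed at 3.34. In turn DNAJC6 (-1.43), DNAJA1 (-1.25), DNAJB2 (1.12) and HSPB11 (1.07) were past the fold only after centring. The sign of the difference changed for 16 of the 58 members, among them HSP90B1 (0.11 before and -0.50 after), HSPA1B (-0.52 and 0.09) and DNAJC5 (-0.50 and 0.11). These members are named here after their values were seen, and changes of sign were not counted over all genes. When TPM was taken over all rows of the files in place of protein-coding rows, the median of all detected genes moved to -1.27 and 40 members were lower and 1 higher (97.6% lower among the calls, against 71.4%), so differences are relative to the protein-coding genes. Whether depth, RNA classes or base composition set these differences was not tested. DNAJB3 had 0 counts in replicate 1 and 38, 11 and 10 in the others. It lies wholly within UGT1A10 and other UGT1A genes of the opposite strand, and UGT1A10 had 0, 3789, 4042 and 5527 counts, and the strand setting of the counting is not given in the sources used here, so reads of DNAJB3 and of these genes cannot be told apart.

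**Figure D3:**
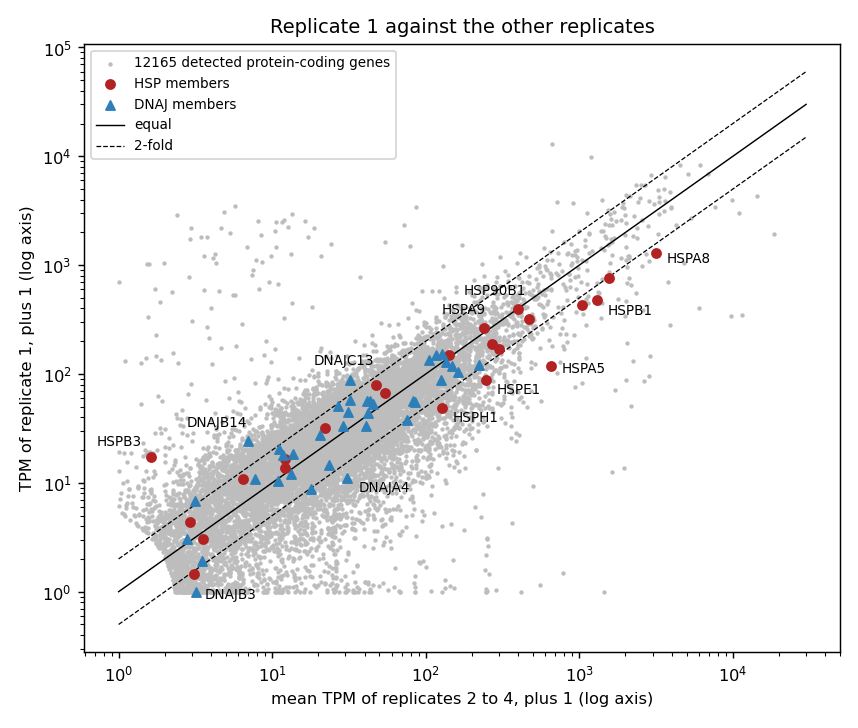
TPM plus 1 of replicate 1 against the mean TPM plus 1 of replicates 2 to 4, both on log axes, for 12165 detected protein-coding genes (grey), HSP members (red circles) and DNAJ members (blue triangles), with lines for equality and a fold of 2. HSPA5 (117 TPM in replicate 1) lies below the lower line among the abundant members, HSPB3 (16.4 TPM) above the upper one, and most DNAJ members lie between the lines.

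Among replicates 2 to 4, whose composition was alike, 12 of 59 members spanned over 2-fold from lowest to highest (20.3%), against 22.7% of all detected genes. The median span was 0.57 on the log2(TPM + 1) scale for members and 0.63 for all genes. The widest was DNAJC13, an endosomal protein, at 36.4, 12.7 and 44.5 TPM in replicates 2 to 4 (a span of 1.73). HSP90B1 followed at 419, 200.1 and 578 TPM (1.53), DNAJB3 at 4.51, 0.97 and 1.06 TPM (1.49), HSPA1L (1.37), HSPB9 (1.23) and HSPH1 (1.23). The other 6 were DNAJB14, DNAJC10 of the endoplasmic reticulum, DNAJC4, DNAJC2 of the ribosome-associated complex, DNAJA4 and DNAJC21, with spans of 1.01 to 1.12. DNAJB3 passed the detection limit through replicate 2, since its mean without that replicate was 0.68 TPM. Replicate 2 is also the high end of its span, so its place among the 12 cannot be separated from the filter. HSPA9 (0.15), HSP90AB1 (0.16) and DNAJB12 (0.05) spanned little, although centred within 20 bins of gene length they spanned 0.44, 0.08 and 0.40.

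Replicate 3 was the lowest of the 3 for 11 of these 12 members, all but HSPB9, and for 80.5% of all genes past the same fold. Over all 59 members it was lowest for 33 (55.9%), against 60.0% of all detected genes. Gene length moved with this. Spearman's rho across genes between length and the difference of replicate 3 from replicates 2 and 4 was -0.42 over 58 members and -0.53 over all detected genes. The count of 12 depends on the scaling. It was 5 with upper quartile or median-of-ratios scaling, 6 with TMM and 5 without length correction, and HSP90B1, HSPA1L and DNAJC13 were past the fold in each of these. Under TMM 18.0% of all genes were past it. The median of all genes in replicate 3 lay at -0.30 relative to replicates 2 and 4 with TPM and at 0.01 with TMM. Without replicate 3 the count was 2, beside 4.33% of all detected genes, and without replicate 4 it was 4, beside 11.6%. Centred within 20 bins of gene length, HSP90B1 spanned 1.36, DNAJC13 0.93 and HSPH1 0.57. Whether length sets these spans was not tested.

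**Figure D4:**
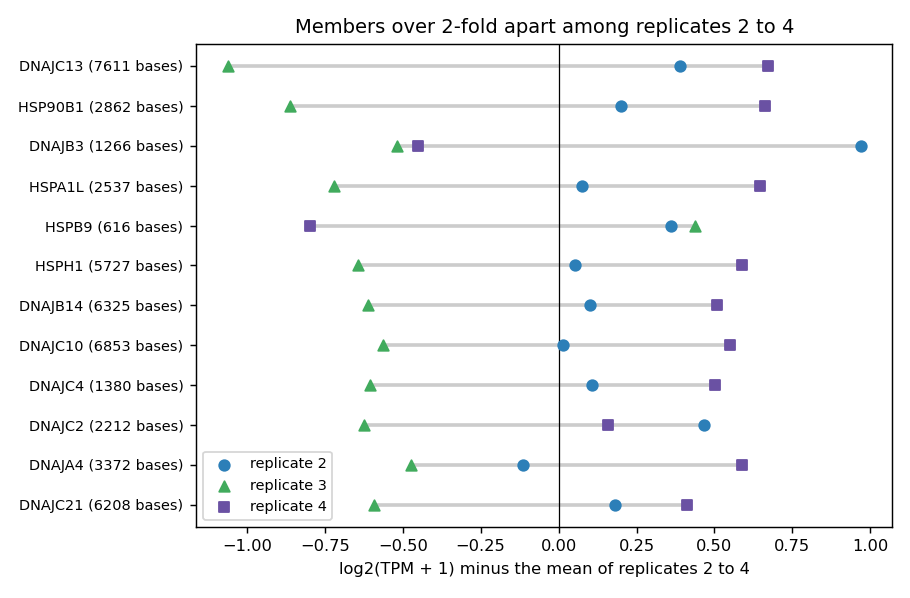
log2(TPM + 1) of replicates 2, 3 and 4 minus their mean, for the 12 members over 2-fold apart among these libraries, in order of span and with the gene length in bases. Replicate 3 is leftmost in 11 rows, and DNAJC13 has the widest span (1.73).

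Members were also grouped by where and when they act, after their values had been seen. The 7 heat-inducible cytosolic members (HSPA1A, HSPA1B, HSPA6, HSPH1, DNAJB1, HSPB1 and HSP90AA1) summed to 1430.5, 3434, 2509 and 3845 TPM, and each of the 7 was lower in replicate 1 than the mean of the others by any amount, as were 48.9% of all detected genes. HSPA6 of these was under the detection limit, and HSPA1B lay at 0.09 once centred by GC content. The 6 constitutive cytosolic ones (HSPA8, HSP90AB1, HSPA4, DNAJA1, DNAJA2 and DNAJC7) summed to 2579, 4753, 6136 and 4849 TPM. The ratio of heat-inducible to constitutive members within a library was 0.555, 0.722, 0.409 and 0.793 in replicates 1 to 4, so it was lowest in replicate 3 and not in replicate 1. The 8 members of the endoplasmic reticulum (HSPA5, HSP90B1, HSPA13, DNAJB9, DNAJB11, DNAJC1, DNAJC3 and DNAJC10) summed to 761, 1394, 933 and 1545 TPM. The 8 mitochondrial members (HSPA9, HSPD1, HSPE1, DNAJA3, DNAJC11, DNAJC15, DNAJC19 and DNAJC30) summed to 872, 1236, 1198 and 1131 TPM. The ratio of reticular to mitochondrial members was 0.872, 1.13, 0.779 and 1.37 in replicates 1 to 4, above 1 in replicates 2 and 4 and below it in replicates 1 and 3. The sums behind both ratios were not centred by gene length. Length moved with the difference of replicate 3 from replicates 2 and 4 (rho -0.53 over all detected genes), and whether it sets these ratios was not tested. Of the 8 reticular members, 3 were lower in replicate 1 than the mean of the others, HSPA5 (-2.44), DNAJB11 (-0.32) and DNAJB9 (-0.04). HSP90B1 stood at 0.11, and was lowest in replicate 3. Centred by GC content, HSP90B1 (-0.50), HSPA13 (-0.49) and DNAJC10 (-0.38) were lower in replicate 1 too.

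The partners of these chaperones were nearly all detected. Of 4 heat shock factors, HSF1, the main activator of the heat shock response, stood at 28.1, 171, 129 and 134 TPM, HSF2 at 20.7, 10.1, 12.4 and 11.0 TPM and HSF4 at 6.63, 8.73, 1.83 and 8.46 TPM, and HSF5 had no counts. All 11 genes listed for nucleotide exchange and release of HSP70 were detected, led by BAG3 (36.0, 220.1, 161 and 217 TPM), HYOU1 (60.4, 203, 138 and 212 TPM) and BAG6. This list, called exchange factors below, does not hold HSPA4, HSPH1 and HSPA4L. Replicate 1 was lowest for HSF1, BAG3 and HYOU1. Other genes of the same lists, HSF2, HSF4, BAG1, BAG4, BAG5 and GRPEL2, lay higher in replicate 1 than the mean of the others and are named to show this. Of these, HSF4 in replicate 1 still lay below replicates 2 and 4, and BAG1 below replicate 3. Values of partners were not centred by GC content. Of 14 HSP90 co-chaperones 13 were detected, led by STIP1, which joins HSP70 to HSP90 (208, 475, 447 and 388 TPM), CDC37 and TRAP1, and FKBP5 was not. TRAP1 is itself the mitochondrial HSP90 and no co-chaperone, and it is among the 5 of this list counted lower in the next paragraph. The 3 adaptors and ligases of HSP70 (TOMM34, ST13 and STUB1), all 8 subunits of the cytosolic chaperonin TRiC (led by CCT3, CCT7 and CCT6A, mean TPM 394 to 428) and all 12 genes of folding and stress in the endoplasmic reticulum (led by CALR, PDIA3 and ATF4) were detected.

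Over 2-fold lower in replicate 1 were 1 of 3 detected heat shock factors, 5 of 11 exchange factors, 5 of 13 HSP90 co-chaperones, 1 of 3 adaptors and ligases, 0 of 8 TRiC subunits and 1 of 12 genes of the endoplasmic reticulum, beside 20.1% of all detected genes. Over 2-fold higher were 0, 1, 0, 1, 0 and 1 of them. The lists are small, and these counts carry no test. TRiC, the chaperonin for actin and tubulin, summed to 2096, 2453, 2969 and 2109 TPM, and like HSPA8 it was highest in replicate 3.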

How the data were processed

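RNA-seq was performed on 4 untreated HaCaT libraries, which form 1 group. The authors deposited raw counts per gene with a gene length, a gene type and a position for 44591 genes, together with RPKM in the files of replicates 1 and 2 and TPM in those of replicates 3 and 4. Since these units differ, only the counts and lengths were used. Per the labels, the submitters' processing notes name HISAT2, TopHat2, Bowtie2, HISAT and hg19. The counting program, the annotation and the strand setting are not given in the sources used here. The labels do not say how the repeats were separated, so any p measures the spread between these libraries.

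TPM was computed over the 19233 protein-coding rows, and a mean TPM above 1 was called detected. Differences were taken on log2(TPM + 1), between genes within a replicate with a two-sided exact sign-flip permutation test, and between replicates without a test at a fold of 2. A floor of 3 counts was used, intervals are 95% Wilson intervals, and shallower libraries carry larger counting error. GC content was that of the longest protein-coding transcript of GENCODE release 29. Named members were, in each family, the 5 with the highest mean TPM, the members of fixed pairs, those over 2-fold apart among replicates 2 to 4, the 5 farthest in replicate 1 and those not detected, and the 3 highest and the undetected genes of each partner list. The members and lists were chosen with earlier results of these data known.

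Alternatives were TPM over all rows, scaled counts without length correction, upper quartile, median-of-ratios and TMM scaling (edgeR 4.0.16), pseudocounts of 0.1 and 0, other detection limits, no filter, a fold of 1.5, leaving out each replicate, and, added after seeing the data, centring within 20 bins of GC content or length. The call at a fold of 2 was run on simulated counts with known changes. The simulation held no shift by GC content or gene length between libraries, so it does not check the call where such shifts are present, as they are here. Scripts ran under Python 3.11.15 with SciPy 1.17.1, pandas 2.3.3 and NumPy 2.4.6, and figures were drawn with matplotlib 3.10.9.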

Additional observations from a re-analysis of the deposited data

Results flagged for a closer look

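In 52 sets of 4 values (8 sums, over the families and over all members, 38 detected members named in the text and the differences of 6 fixed pairs of genes), a replicate was flagged where its gap to the nearest of the others exceeded Dixon's 95% critical value for the range of the set. Chance flags about 1 in 20 independent sets, which would be 2.6 of 52, and 4 were found, all in replicate 1. These sets are not independent, since the sums hold the members. Some members were also named for their distance in replicate 1 or their spread in these data. The count of 4 therefore cannot be read against 2.6. All members summed to 6766 TPM in replicate 1, where the other 3 replicates gave 11684 to 12367 TPM. The chaperonin sum of HSPD1 and HSPE1 was 410.0 TPM there, against 685 to 736 TPM elsewhere. HSPB3 stood at 16.4 TPM in replicate 1, on 313 counts, beside 0.43 to 0.86 TPM, and since it was detected through replicate 1 alone it had to stand apart. DNAJB12 stood at 55.2 TPM in replicate 1 and between 41.8 and 43.2 TPM otherwise. By the same measure 3 of 59 detected members (5.08%) and 9.82% of all 12165 detected genes had a replicate that far from the others. The third member was HSPA12A, which was lowest in replicate 3 (6.73 TPM).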

How the results depend on the processing

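No paired analysis was possible because all libraries form 1 group. No difference between the fixed pairs of genes changed sign under the alternatives run. Replicate 1 over the mean of the others turned for the DNAJC sum, from 1.12 to 0.386 with TPM over all rows, and for the DNAJ sum, from 0.960 to 1.04 without length correction. With TPM over all rows, the sums were 278 for DNAJA, 414 for DNAJB and 724 for DNAJC, and 41 members in place of 14 were over 2-fold apart in replicate 1 (64.3% of all detected genes, in place of 37.5%). With counts scaled by library size alone, without length correction, the sums were 3707 for HSP90, 445 for the small heat shock proteins, 427 for DNAJA, 657 for DNAJB and 1337 for DNAJC. The count of 12 members over 2-fold apart among replicates 2 to 4 (22.7% of genes) was 5 without length correction (2474 of 12367 genes), 5 with upper quartile scaling (18.5%), 5 with median-of-ratios size factors (18.1%), 6 with TMM (18.0%), 6 centred within bins of GC content (16.5%) and 5 centred within bins of length (12.5%). Leaving out a replicate gave 2 (without replicate 3, 4.33%) to 10 (without replicate 2, 17.4%). With a fold of 1.5, 29 members were apart in replicate 1 (60.6%) and 29 among replicates 2 to 4 (54.1%). The cause was not tested. Sums, shares and levels were judged by a move of 1 SD between replicates and counts by 1.5 times. Pair differences were judged by sign alone. By these rules the other 156 values of the main results and 436 values of single members held, and 32 values of single members moved further. Without length correction 3 pair differences moved by over 1 SD with the sign kept. HSPD1 minus HSPE1 went from 1.17 to 2.51, HSP90AB1 minus HSP90AA1 from 0.67 to 0.17 and DNAJA1 minus DNAJB1 from -0.39 to -0.66. The other fixed pairs stayed within 1 SD there. The low counts of HSPB3, HSPB9, HSPA1L and DNAJB3 limit the precision of their levels.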
